A study of Rattus norvegicus with 29 samples.

Results

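The Toll-like receptor genes Tlr1 to Tlr10 were followed in blood mononuclear cells of 29 male Wistar rats on 2 diets and in 3 feeding states. Members were taken as array probes whose gene name in the scanner files is one of these symbols, whatever the case and with or without a suffix marking a predicted gene. By this rule 8 of the 10 genes had a probe, 1 each: Tlr2, Tlr3, Tlr4, Tlr5, Tlr6, Tlr7, Tlr9 and Tlr10. The whole array held 41012 probes. Of the 8 genes, 6 gave signal above background and were among the 24166 genes tested.

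Toll-like receptors are membrane proteins that bind conserved parts of microbes and start inflammatory and interferon signalling through TIR-domain adaptors. Those at the cell surface recognise lipopeptides, lipopolysaccharide or flagellin, and those in endosomes recognise nucleic acids. In blood they are carried above all by monocytes, neutrophils, dendritic cells and B cells, each with its own set of receptors.

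Control rats were kept on standard chow, and cafeteria rats, a model of diet-induced obesity, were given a fat-rich, energy-dense diet beside chow from 2 months of age, for 4 months. At 6 months of age blood was taken from rats of each diet with free access to food (fed), from rats fasted for 14 h, or from rats refed for 6 h after that fast. The control fed group had 4 rats and each of the other 5 combinations of diet and feeding state had 5, with a rat of its own behind every sample. The cells, lymphocytes and monocytes with whatever platelets and other cells a Ficoll gradient leaves among them, were a mixture from saphenous vein blood. RNA of each rat was labelled with Cy5 and set on a 2-colour array against a Cy3-labelled pool of all the samples. A level below is therefore the log2 ratio of a rat to that pool for 1 probe, where 0 equals the pool, and a change is a difference of 2 group means of such ratios with its standard error after ±.

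Between 53.0% and 66.6% of probes were well above background in Cy5 on each array, and the median Cy5 signal ran from 102.2 to 152.8 units. The arrays lay on 8 slides scanned on 1 day, and their images were extracted in 2 runs of 14 and 15 arrays that held the groups unevenly (run 1 held 4 of 5 control fasted, 1 of 5 cafeteria fasted and 4 of 5 cafeteria fed arrays). T cell (Cd3e, Cd8a), B cell (Ms4a1) and monocyte (Csf1r) marker genes were well above background on all 29 arrays, while the monocyte gene Cd163 was so on 0 arrays. Of the neutrophil markers, S100a8, S100a9, Camp, Mmp9, Csf3r and Slpi were well above background on 29 arrays, Retnlg on 27 and Lcn2 on 18, while Mpo and Fpr1 were so on 0 arrays. Ltf, Mmp8 and Ngp were so on only 12, 9 and 7 arrays and Cxcr2 on 3. Ltf, Mmp8 and Ngp were dim (Cy5 medians 81.6, 72.1 and 76.8 units) but enter the neutrophil marker mean used below. The precision of every value is limited by the number of arrays.

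The upstream sequences of Tlr6 and Tlr4 are shown because these were the members whose levels changed with feeding state. Each is the 250 bases before the RefSeq transcript start in the GRCr8 assembly, 5′ to 3′ on the gene's own strand, which is the plus strand for both. Capitals mark matches to any of 6 motifs searched on both strands: GAGGAA (the core bound by PU.1, a myeloid factor), TTGCNNAA (C/EBP), GTAAACA (FOXO), AGAACA (a core of glucocorticoid response elements), and the interferon response and NF-kB motifs.
Tlr6, chr14:43715559-43715808: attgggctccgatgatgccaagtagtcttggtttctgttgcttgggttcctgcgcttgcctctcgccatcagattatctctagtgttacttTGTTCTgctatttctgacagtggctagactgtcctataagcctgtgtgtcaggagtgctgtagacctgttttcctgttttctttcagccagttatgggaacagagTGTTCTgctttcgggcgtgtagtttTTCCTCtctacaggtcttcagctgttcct
Tlr4, chr5:85160997-85161246: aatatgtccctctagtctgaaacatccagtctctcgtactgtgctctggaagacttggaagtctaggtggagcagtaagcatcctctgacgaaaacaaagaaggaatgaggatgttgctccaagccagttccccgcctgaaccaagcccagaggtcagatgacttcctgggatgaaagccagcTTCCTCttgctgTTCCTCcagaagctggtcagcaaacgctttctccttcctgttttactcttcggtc
The Tlr6 window held 2 matches to AGAACA, at 159 to 154 and 54 to 49 bases before the start, and 1 match to GAGGAA at 29 to 24 bases, all on the minus strand. The Tlr4 window held 2 matches to GAGGAA, at 67 to 62 and 55 to 50 bases before the start, also on the minus strand. Of 33465 RefSeq promoters cut to the same 250 bases, 23.3% held GAGGAA and 17.5% held AGAACA. All 10 members were found in that promoter table, and GAGGAA occurred in Tlr3, Tlr4, Tlr6, Tlr7, Tlr8, Tlr9 and Tlr10 but not in the windows of Tlr1, Tlr2 and Tlr5. For Tlr1 and Tlr10 the window lay inside the annotated span of the gene rather than before it. Tlr2 held the NF-kB motif, which 14.3% of promoters hold, at 206 to 196 and at 42 to 33 bases before its start, in matches that overlap each other on both strands. These matches describe letters only, and no binding was measured.

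The probes, 1 for each receptor, lie on the rn4 build at chr2:175608160-175608217 (Tlr2), chr16:50126045-50126104 (Tlr3), chr5:83577410-83577469 (Tlr4), chr13:99028440-99028499 (Tlr5), chr14:46100547-46100606 (Tlr6), chrX:47356167-47356226 (Tlr7) and chr14:46141778-46141837 (Tlr10), and the files give no position for Tlr9. The files do not say in which exon or untranslated region a probe lies. The probes of Tlr2, Tlr3, Tlr4, Tlr6, Tlr7 and Tlr9 were well above background on 29 of 29 arrays and saturated on 0. The probe of Tlr5, the flagellin receptor, was well above background on 0 of 29 arrays (Cy5 signal 50.8 to 81.0 units), and so was that of Tlr10, a relative of the lipopeptide receptors (57.0 to 75.9 units). Both were left untested and have no fold change. Tlr1 and Tlr8 had no probe by the rule. For Tlr1, a further probe was followed outside the rule, named by its RefSeq transcript and described as similar to toll-like receptor 1, with the RefSeq gene number of Tlr1. It lies at chr14:46124542-46124601, between the probes of Tlr6 and Tlr10, and was well above background on 29 arrays. Tlr8 was not analysed here.

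Among the 6 tested receptors, Tlr6 followed the feeding state in both diets: it was low in fasted rats and higher in fed and refed rats. Tlr4 rose on refeeding in control rats and in the mean of both diets. No change passed the test for Tlr2, Tlr3, Tlr7 or Tlr9 in any of the 14 comparisons, and none of the 6 receptors differed between refed and fed rats. Tlr6 was also higher in cafeteria than in control rats in the mean of the 3 feeding states. These are bulk measurements, in which fewer cells of a type and less RNA per cell cannot be told apart.

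**Figure D1:**
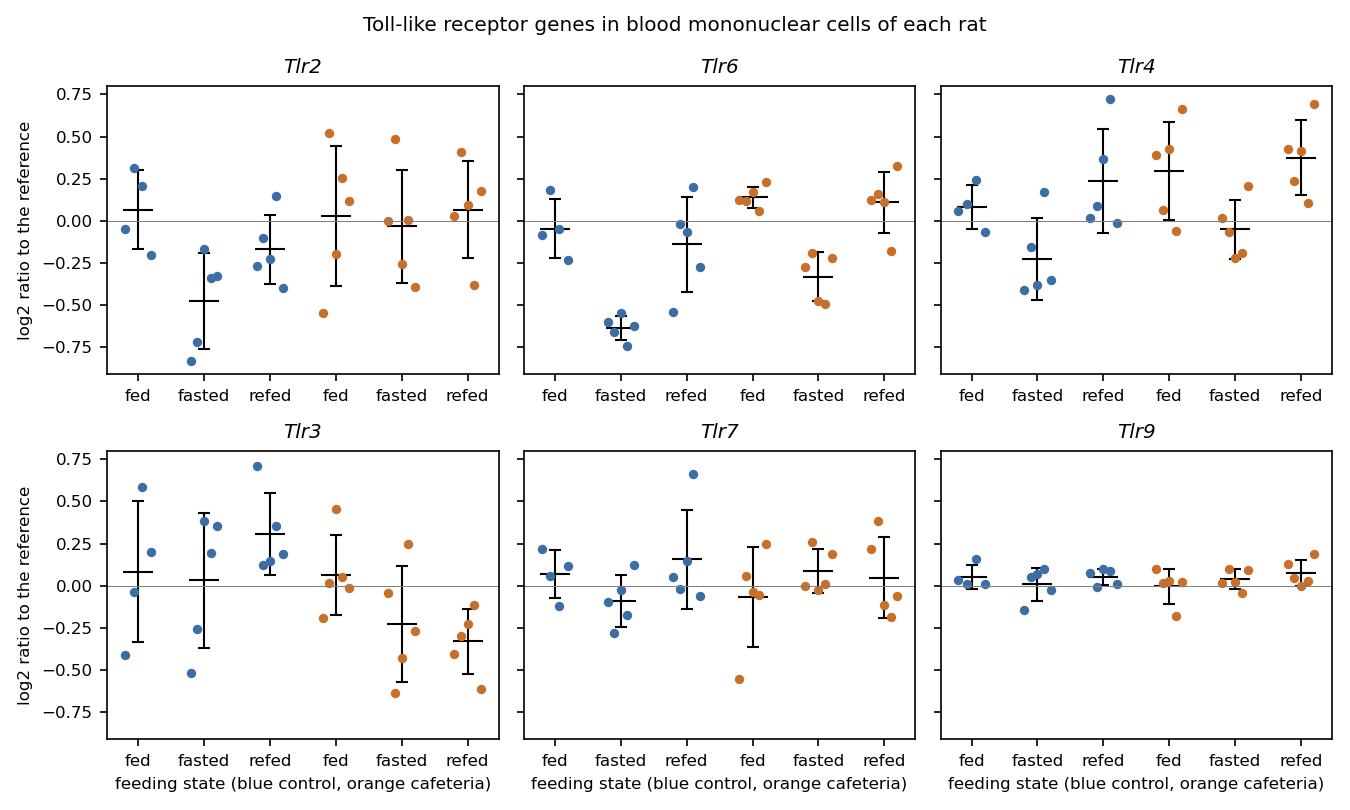
Log2 ratio to the reference pool (y axis) of 6 receptor genes in each rat, by feeding state (x axis) in control rats (blue) and cafeteria rats (orange). Points are single rats, and bars are the group mean ± SD of 4 or 5 rats. The 5 control fasted rats have Tlr6 values from -0.74 to -0.55, below all control fed rats, while the values of Tlr9 stay within -0.18 and 0.19 in all rats.

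Tlr6 forms a heterodimer with Tlr2 that recognises diacylated lipopeptides. Its levels in control fed rats 1, 4, 7 and 13 were -0.09, 0.18, -0.05 and -0.24. Control fasted rats 2, 5, 8, 11 and 14 had levels of -0.60, -0.66, -0.55, -0.74 and -0.63. Every fasted rat lay below every fed rat, a separation in this direction that 2.42% of all genes showed. The mean fell by 0.59 ± 0.11 on the log2 scale, a 1.51-fold lower level (adjusted p = 0.0249, limma with Benjamini-Hochberg adjustment over all genes). Of the 6 receptors, Tlr6 alone was called in this comparison, against 0.178% of all genes.

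In cafeteria fed rats, Tlr6 stood at 0.12, 0.12, 0.17, 0.06 and 0.23 in rats 1, 4, 7, 10 and 13. In cafeteria fasted rats it stood at -0.27, -0.19, -0.48, -0.49 and -0.22 in rats 2, 5, 8, 11 and 14. The groups again did not overlap, as 1.06% of genes did in this direction, and the cafeteria fed rats were the least scattered group of this diet (SD 0.06). The mean fell by 0.47 ± 0.10, or 1.39-fold (adjusted p = 0.0290, limma), and Tlr6 was again the only receptor called, against 0.857% of all genes. In the mean of both diets it fell by 0.53 ± 0.08 (adjusted p = 0.0004, limma), the 11th smallest p of 24166 genes, in a comparison that called 4.09% of genes. The fasting response did not differ detectably between the diets: the interaction was 0.12 (95% interval -0.19 to 0.43, adjusted p = 0.9997, limma).

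Within 1 diet the fasting call rested on small margins. With median centring in place of loess the sizes were close (-0.61, -0.45 and -0.53 in control rats, cafeteria rats and their mean) but the standard errors were larger, and no fasting call of Tlr6 was left (adjusted p = 0.788, 0.9999 and 0.290, limma). In control rats it was lost without fed rat 1, 4 or 7 or fasted rat 14 (adjusted p = 0.0824, 0.105, 0.0663 and 0.0526 for Tlr6, limma), and in cafeteria rats without fed rat 1, 7 or 13 or fasted rat 8 or 11 (0.0774, 0.0772, 0.0746, 0.0618 and 0.124). The size of the change lay between -0.65 and -0.51 in control rats and between -0.51 and -0.43 in cafeteria rats when any 1 array was left out, and the call in the mean of both diets was kept each time (adjusted p up to 0.0015, limma). Within image extraction run 1 the change of Tlr6 was -0.48 in control and -0.34 in cafeteria rats, and within run 2 it was -0.69 and -0.48, with a single array on one side of 3 of these 4 differences.

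On refeeding, Tlr6 returned toward the level of fed rats. Control refed rats 3, 6, 9, 12 and 15 stood at -0.54, -0.02, -0.07, 0.20 and -0.28. Rat 3 was lower than the other 4 and lay only just above the highest control fasted rat, at -0.55. The mean rose by 0.50 ± 0.10, or 1.41-fold (adjusted p = 0.0029, limma). Cafeteria refed rats 3, 6, 9, 12 and 15 stood at 0.12, 0.16, 0.11, -0.18 and 0.33, of which rat 12 was the lowest and lay just above the highest cafeteria fasted rat, at -0.19. The mean rose by 0.44 ± 0.10, or 1.36-fold (adjusted p = 0.0289, limma). Refed and fasted rats thus did not overlap in either diet, as 4.09% of genes did upward in control rats and 1.98% in cafeteria rats. Refeeding called 9.31% of all genes in control rats, where 2 of the 6 receptors were called (Tlr6 and Tlr4), and 1.42% in cafeteria rats, where Tlr6 alone was called. In the mean of both diets 13.5% of genes were called, among them Tlr6 (0.47 ± 0.07, adjusted p = 0.0002, limma) and Tlr4.

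The cafeteria refeeding call of Tlr6 was lost without cafeteria fasted rat 8 or 11 (adjusted p = 0.0713 and 0.107, limma) and without cafeteria refed rat 3, 6, 9 or 15 (0.0688, 0.0542, 0.0668 and 0.0913), with the change between 0.39 and 0.51. With median centring the refeeding change of Tlr6 was 0.43, 0.57 and 0.50 in control rats, cafeteria rats and their mean, none of them called (adjusted p = 0.592, 0.678 and 0.102, limma). The control refeeding call of Tlr6 was kept without any 1 array (adjusted p up to 0.0110). Within run 1 the refeeding change of Tlr6 was 0.36 in control rats and, with 1 array against 1, 0.32 in cafeteria rats. Within run 2 it was 0.58 in control rats, with 3 refed arrays against 1, and 0.47 in cafeteria rats.

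Platelet marker genes moved with the same comparison. Their mean over 16 of 20 listed genes was 0.44 to 0.76 in control fasted and -1.32 to -0.25 in control refed rats. In cafeteria rats it was -0.32 to 0.20 in fasted and -1.62 to 0.37 in refed rats. With the mean of the platelet markers as a covariate, the refeeding change of Tlr6 was 0.60 ± 0.14 in control rats (adjusted p = 0.0734, limma) and 0.48 in cafeteria rats (adjusted p = 0.0250), and 0.54 in the mean of both diets (adjusted p = 0.0045). In control rats the platelet marker means of fasted and refed rats did not overlap, so the fit cannot separate this covariate from refeeding there. The control call of Tlr6 was lost with this covariate, and its standard error was larger. The part of platelets in the change was not tested.

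Refed and fed rats did not differ in Tlr6 by the test. The difference was -0.09 (95% interval -0.32 to 0.13) in control rats and -0.03 (95% interval -0.24 to 0.18) in cafeteria rats. No gene was called in either comparison (0% of genes, limma), although an unadjusted p under 0.05 was found for 1413 genes in the control diet and 1035 in the cafeteria diet. Of the 6 receptors, 0 in control rats and 1 in cafeteria rats, Tlr3, were among those.

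**Figure D2:**
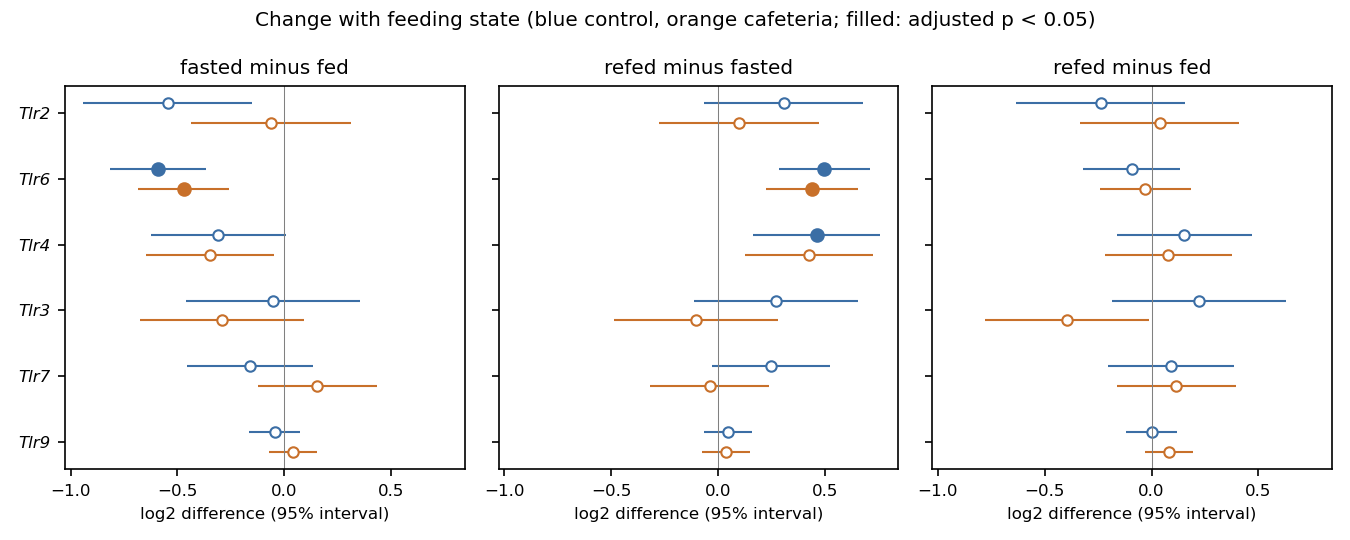
Difference of group means on the log2 scale (x axis) with its 95% interval for 6 receptor genes (y axis), for fasted minus fed, refed minus fasted and refed minus fed rats, in control (blue) and cafeteria rats (orange). Filled points passed an adjusted p of 0.05. Tlr6 is filled in both diets for fasting (-0.59 and -0.47) and for refeeding (0.50 and 0.44), Tlr4 for refeeding in control rats (0.46), and no point is filled for refed minus fed rats.

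Ordered by mean, Tlr6 was highest in cafeteria fed (0.14 ± 0.06, SD) and cafeteria refed rats (0.11 ± 0.18), followed by control fed (-0.05 ± 0.17), control refed (-0.14 ± 0.28), cafeteria fasted (-0.33 ± 0.14) and control fasted rats (-0.64 ± 0.07), with n = 4 in control fed and 5 in the others. Neighbours in this order overlapped, except that all cafeteria fasted rats lay above all control fasted rats. That diet difference in fasted rats was 0.31 ± 0.10 and did not pass the test (adjusted p = 0.160, limma), and 1.65% of genes showed the same separation. The diet difference was 0.19 ± 0.11 in fed rats and 0.25 ± 0.10 in refed rats, neither of which passed the test. Averaged over the 3 feeding states, Tlr6 was 0.25 ± 0.06 higher in cafeteria rats (adjusted p = 0.0198, limma; 3.24% of genes called), and leaving out any 1 array kept the call (adjusted p up to 0.0453). The control fasted arrays were mostly of run 1 and the cafeteria fasted arrays mostly of run 2; within run 1 the diet difference of Tlr6 was 0.31, 0.45 and 0.40 in fed, fasted and refed rats, and within run 2 it was 0.05, 0.26 and 0.15, with a single array on one side of 4 of these 6 differences. With slide as a fixed block, an alternative chosen after seeing the data, the difference was 0.21 (adjusted p = 0.0760), and with median centring it was 0.36 (adjusted p = 0.461). No receptor was called for diet in fed (0.00828% of genes called), fasted (0.832%) or refed rats (0.223%) taken alone.

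Tlr2 is the common partner of Tlr1 and Tlr6 in lipopeptide recognition. Control fed rats had Tlr2 levels of -0.05, 0.31, 0.20 and -0.20, and control fasted rats had -0.83, -0.72, -0.17, -0.34 and -0.33. These groups overlapped narrowly, with fasted rat 8 above fed rat 13, and the change of -0.54 ± 0.19 did not pass the test (adjusted p = 0.234, limma). In cafeteria rats the fed values ran from -0.55 to 0.52 and the fasted values from -0.39 to 0.48, and the change was -0.06 ± 0.18. The interaction between diet and fasting was 0.48 (95% interval -0.06 to 1.03) and did not pass the test, nor did any gene pass it (0% of genes, 771 at an unadjusted p under 0.05, limma). Refed values ran from -0.40 to 0.15 in control and from -0.38 to 0.41 in cafeteria rats. For Tlr2 the groups overlapped in every comparison of a pair of groups.

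For the Tlr1 probe outside the rule, levels in the control diet were 0.32, 0.09, 0.00 and 0.13 for the fed rats, and for the fasted rats -0.40, -0.30, -0.19, -0.32 and 0.05, with fasted rat 14 inside the fed range. Cafeteria fed rats ran from -0.18 to 0.16 and cafeteria fasted rats from -0.53 to 0.16. In the mean of both diets it fell by 0.30 ± 0.08 on fasting (adjusted p = 0.0431, limma). That call was lost in 16 of the 29 fits that left out 1 array each (adjusted p from 0.0509 to 0.109 for Tlr1 in those fits), so it rested on the full set of arrays. No other change of this probe passed the test.

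Tlr4 recognises lipopolysaccharide together with Ly96 and Cd14. Control fed rats had Tlr4 levels of 0.06, 0.10, 0.24 and -0.07, and control fasted rats had -0.41, -0.15, -0.38, 0.17 and -0.35. In control refed rats 3, 6, 9, 12 and 15 it stood at 0.02, 0.09, 0.37, 0.72 and -0.01. Fasted rat 11, at 0.17, lay within the range of fed and refed rats, and the other 4 fasted rats lay below all of them. The rise from fasted to refed control rats was 0.46 ± 0.14, or 1.38-fold (adjusted p = 0.0420, limma). It was lost without control fasted rat 2, 5, 8 or 14 (adjusted p = 0.105, 0.0554, 0.104 and 0.0959 for Tlr4) and without control refed rat 9 or 12 (0.0980 and 0.154), and without control refed rat 6 the adjusted p lay just above the threshold. It was 0.25 within run 1 and 0.71 within run 2, the latter against a single fasted array. With the mean of the platelet markers as a covariate the rise of Tlr4 was 0.56 ± 0.20 (adjusted p = 0.201, limma).

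In cafeteria rats Tlr4 stood at 0.39, 0.06, 0.43, -0.06 and 0.66 when fed, at 0.02, -0.07, -0.22, -0.19 and 0.20 when fasted, and at 0.42, 0.24, 0.41, 0.10 and 0.69 when refed. Fasted rat 14 overlapped the refed range. The rise on refeeding was 0.43 ± 0.14, close in size to that of control rats, but did not pass the test (adjusted p = 0.157, limma), and the difference between the diets in this rise was -0.04 (95% interval -0.46 to 0.38). In the mean of both diets Tlr4 rose by 0.44 ± 0.10 on refeeding (adjusted p = 0.0040, limma), and this call was kept without any 1 array (adjusted p up to 0.0093); with median centring it was 0.53 and the adjusted p was 0.0479.

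The fasting change of Tlr4 was -0.33 ± 0.11 in the mean of both diets and missed the threshold (adjusted p = 0.0798, limma). It passed without control fasted rat 11, control refed rat 12 or cafeteria fed rat 10 (adjusted p from 0.0356 to 0.0491 for Tlr4). It also passed with the scanner software's processed signals (-0.72, adjusted p = 0.0177) and, in a fit to the authors' deposited table of log2 signals, at -0.58 (adjusted p = 0.0123). The Tlr4 probe was dim (Cy5 median 311.5 units), and the offset used in background correction makes changes of dim probes smaller.

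Tlr3, Tlr7 and Tlr9 are the endosomal receptors, for double-stranded RNA, single-stranded RNA and unmethylated CpG DNA. Tlr3 stood at -0.41, -0.30, -0.23, -0.11 and -0.61 in cafeteria refed rats and at 0.71, 0.12, 0.15, 0.35 and 0.19 in control refed rats. Every cafeteria refed rat was below every control refed rat, as 1.46% of genes were. The difference of -0.64 ± 0.19 did not pass the test (adjusted p = 0.181, limma). In a fit to the authors' deposited table, in which the median of all genes was shifted in comparisons with control refed rats, it was -1.08 and passed (adjusted p = 0.0134). The Tlr3 difference was -0.82 within run 1 and -0.54 within run 2. In fed and fasted rats of both diets Tlr3 ranged from -0.64 to 0.58, and its fasting changes were -0.05 ± 0.20 in control and -0.29 ± 0.19 in cafeteria rats.

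Tlr7 ranged from -0.55 to 0.66 over the 29 rats. Its fasting change was -0.16 ± 0.14 in control and 0.15 ± 0.14 in cafeteria rats, and its refeeding change was 0.25 ± 0.14 and -0.04 ± 0.14. Control refed rat 12 was the highest at 0.66, and that group's other 4 rats lay between -0.06 and 0.15. Tlr9 was the least variable member on these arrays. Its values lay between -0.18 and 0.19, its group means between -0.00 and 0.08, and the 95% interval of its fasting change was -0.16 to 0.07 in control rats and -0.07 to 0.15 in cafeteria rats. The Tlr9 probe was also the dimmest of those tested for a change (Cy5 median 167.4 units), close enough to the offset of 50 units for its changes to be understated. The probes of Tlr3 and Tlr7 were dim too (Cy5 medians 227.5 and 254.7 units), so their changes may also be understated.

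Rats of a group differed in the level of monocyte marker genes, and the receptors were set against this level. The mean log2 ratio of 17 of 20 listed monocyte marker genes ran from -0.54 to 0.43 over the rats. Its group mean was -0.04 in fed and -0.20 in fasted rats of the control diet, and -0.09 and 0.00 in the cafeteria diet. Of the 17 genes 0 were called for fasting in either diet, where 0.178% and 0.857% of all genes were called. With the mean of each group taken off, Tlr2 followed these markers across the 29 rats (r = 0.882, rho = 0.856, permutation p = 1e-05 for both, the smallest that 100000 resamples can give; adjusted p = 0.0002 over the 24 relations tested). Without the 2 rats farthest from the median of the markers r was 0.857, and within runs 1 and 2 it was 0.914 and 0.851. Tlr7 followed them too (r = 0.651, rho = 0.628, permutation p = 6e-05 and 0.0003, adjusted 0.0007 and 0.0036; r = 0.579 without 2 rats, and 0.615 and 0.695 within the runs).

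Tlr6 did so less closely (r = 0.401, rho = 0.340, permutation p = 0.0313 and 0.0717, adjusted 0.125 and 0.287; r = 0.256 without the 2 farthest rats, and 0.133 and 0.649 within the runs), and for Tlr4 (r = 0.053), Tlr3 (r = -0.0715) and Tlr9 (r = 0.00196) no such relation was detectable. Against the mean of 11 of 16 listed neutrophil markers, Tlr2 had r = 0.593 and rho = 0.614 (permutation p = 0.0007 and 0.0005, adjusted 0.0054 and 0.0042). Tlr6 had r = 0.569 and rho = 0.496 with them (permutation p = 0.0014 and 0.0068, adjusted 0.0082 and 0.0409; 0.605 without 2 rats, and 0.469 and 0.635 within the runs). No receptor was related to B cell or platelet markers (adjusted permutation p of r from 0.334 to 0.933).

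With the monocyte marker mean as a covariate in the fit, the fasting change of Tlr6 was -0.52 and its refeeding change 0.45 in the mean of both diets (adjusted p = 0.0002 and 0.0001, limma), and that of Tlr4 on refeeding was 0.44. The fasting change of Tlr2 in that fit was -0.27 ± 0.07 and passed the test (adjusted p = 0.0165). The neutrophil marker mean lay between -0.18 and 0.11 for fed and between -0.47 and -0.15 for fasted rats of the control diet, and between -0.43 and 0.07 for fed and -0.32 and 0.97 for fasted rats of the cafeteria diet. Its group mean was thus lower with fasting in the control diet (0.02 and -0.27) and higher in the cafeteria diet (-0.17 and 0.15). Its part in the changes of Tlr6 was not tested.

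**Figure D3:**
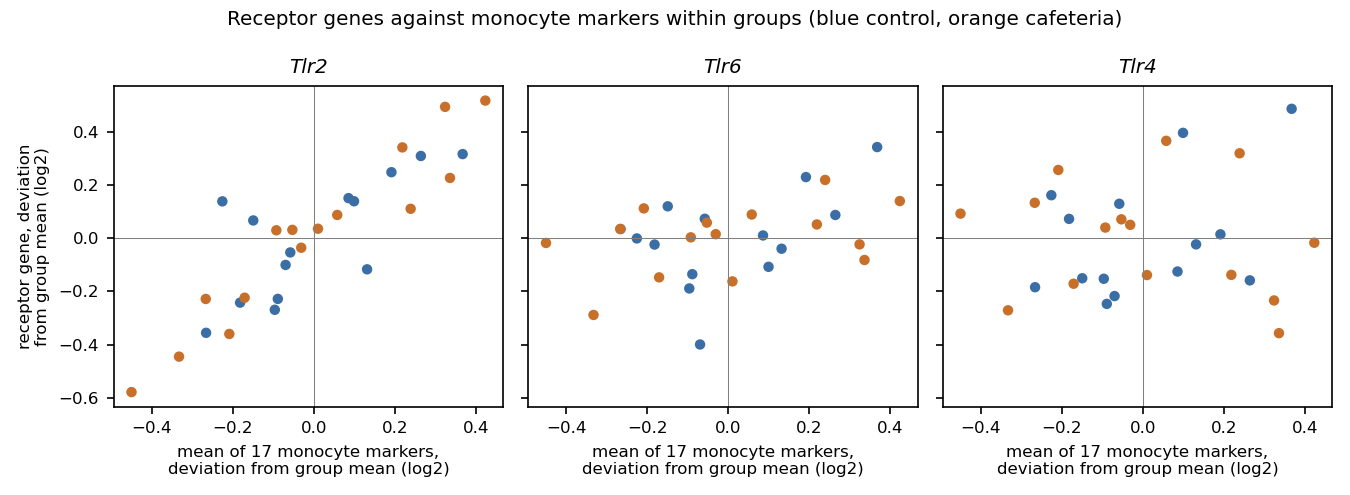
Level of Tlr2, Tlr6 and Tlr4 in each rat as a deviation from its group mean (y axis, log2) against the mean of 17 monocyte marker genes treated the same way (x axis, log2), in control (blue) and cafeteria rats (orange). The 29 points of Tlr2 lie close to a line (r = 0.882), those of Tlr6 more loosely (r = 0.401), and those of Tlr4 show no relation (r = 0.053).

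Receptors were also compared with each other in the same way, in 15 pairs. Tlr4 and Tlr9 rose and fell together across rats of a group (r = 0.644, rho = 0.652, permutation p = 0.00015 and 0.00019, adjusted 0.00225 and 0.00285; r = 0.646 without the 2 rats farthest in Tlr4, and 0.660 and 0.657 within the runs). The probes of Tlr4 and Tlr9 were dim (Cy5 medians 311.5 and 167.4 units), and the part of array noise in their relation was not tested. Tlr4 and Tlr6 were related too (r = 0.571, rho = 0.533, permutation p = 0.00117 and 0.00322, adjusted 0.00765 and 0.0242, and r = 0.582 without 2 rats), although r was 0.236 within run 1 and 0.824 within run 2. Tlr2 and Tlr7 gave r = 0.558 and rho = 0.507 (permutation p = 0.00153 and 0.00567, adjusted 0.00765 and 0.0284; 0.433 without 2 rats, and 0.550 and 0.573 within the runs). The partners Tlr2 and Tlr6 gave r = 0.434 and rho = 0.429, which did not pass after adjustment (permutation p = 0.0181 and 0.0206, adjusted 0.0543 and 0.0772). Tlr3 was not related to any of the other 5 by this test.

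The genes most like each receptor were ranked by the same group-centred correlation over 29 rats among 12052 genes with a symbol, as a description with no test. For Tlr6 they included Tmem168 (r = 0.750) and Mettl7a (0.746). Both also fell on fasting in the mean of both diets, by 0.42 ± 0.07 and 0.65 ± 0.13, and rose on refeeding, by 0.47 ± 0.07 and 0.57 ± 0.12 (adjusted p from 0.0001 to 0.0038, limma). Changes in the same directions were called for Sirpa, near Tlr2 (-0.57 ± 0.12 and 0.59 ± 0.12, adjusted p = 0.0060 and 0.0013), and Cnot6l, near Tlr4 (-0.30 ± 0.07 and 0.34 ± 0.07, adjusted p = 0.0157 and 0.0019). Ptpro and Adgre1, near Tlr2, and Lrrc36, near Tlr4, were called in neither comparison (adjusted p from 0.0664 to 0.799, limma). Thrb, near Tlr4, was called on refeeding only (adjusted p = 0.0362, limma). Of all genes, 4.09% were called on fasting and 13.5% on refeeding. For Tlr2 the most alike genes were Ptpro, a receptor-type tyrosine phosphatase (0.908), the myeloid receptor gene Sirpa (0.893) and the macrophage marker Adgre1 (0.886), the last of which is in the monocyte marker list. For Tlr4 they were Cnot6l (0.750), a subunit of the deadenylase complex, Thrb, the thyroid hormone receptor beta (0.708), and Lrrc36 (0.698). For Tlr7 they were the lectin gene Clec4a3 (0.781), Pparg (0.779) and Rhov (0.774). The nearest to Tlr3 was Cdh23 (0.671) and to Tlr9 Il13 (0.786).

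Among the other genes of the pathway, the adaptor Ticam1, known as TRIF, which serves Tlr3 and Tlr4, also fell on fasting and rose on refeeding. Control fed rats had Ticam1 levels of 0.01, 0.15, 0.10 and -0.11, and control fasted rats had -0.51, -0.24, -0.75, -0.51 and -0.88, with no overlap. In cafeteria rats it stood at 0.37, 0.01, 0.45, -0.13 and 0.41 when fed and at -0.23, -0.69, -0.33, -0.79 and -0.27 when fasted, again with no overlap. Of all genes, 2.42% in control rats and 1.06% in cafeteria rats were separated in this direction. In the mean of both diets Ticam1 fell by 0.65 ± 0.10 on fasting (adjusted p = 0.0007, limma) and rose by 0.61 ± 0.10 on refeeding (adjusted p = 0.0003). Of the 6 adaptors it alone was called in these comparisons, in which 1.82% of all genes rose and 2.27% fell on fasting, and 5.95% rose and 7.51% fell on refeeding. With median centring its fasting change was -0.65 and not called (adjusted p = 0.165, limma), and its refeeding change was 0.68 (adjusted p = 0.0290). Myd88, the adaptor of most Toll-like receptors, changed by -0.01 in both, Tirap by 0.00 and 0.01, and Ticam2 by -0.07 and 0.13.

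Taken by diet, Ticam1 fell by 0.69 ± 0.14 on fasting in cafeteria rats (adjusted p = 0.0219, limma) and its change in control rats was -0.62 ± 0.15 (adjusted p = 0.0712). It rose on refeeding by 0.66 ± 0.14 in control (adjusted p = 0.0038) and 0.57 ± 0.14 in cafeteria rats (adjusted p = 0.0429). The cafeteria calls of Ticam1 were lost without any 1 of 5 arrays on fasting (fed rat 1, 7 or 13, fasted rat 5 or 11; adjusted p from 0.0649 to 0.100) and of 7 on refeeding (fasted rat 5, 8 or 11, refed rat 3, 9 or 15, control refed rat 9; adjusted p from 0.0503 to 0.146). Both calls in the mean of both diets were kept without any 1 array (adjusted p up to 0.0027).

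**Figure D4:**
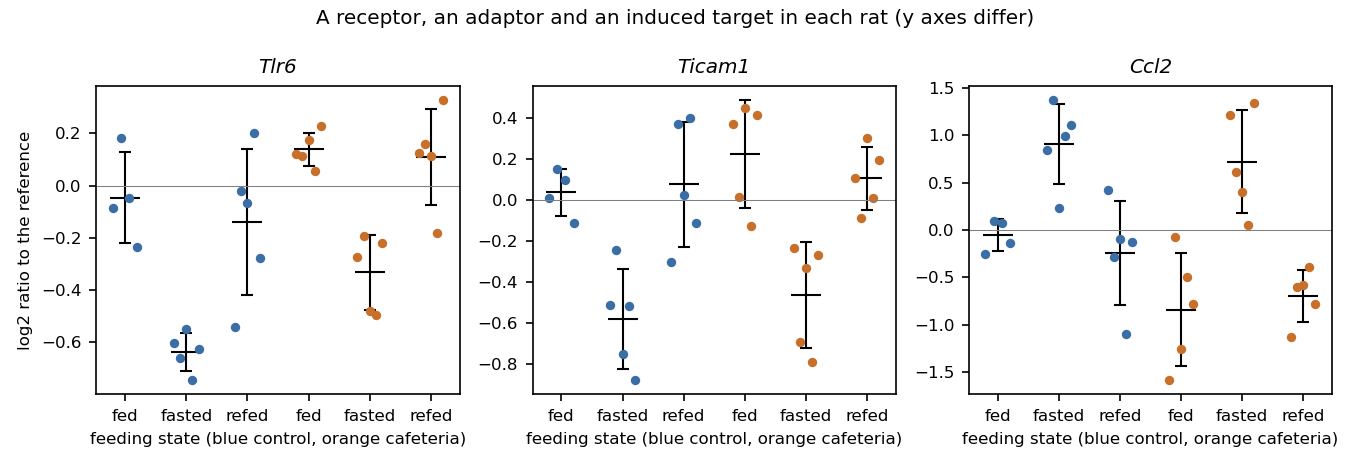
Log2 ratio to the reference pool (y axes, which differ in range) of Tlr6, the adaptor gene Ticam1 and the chemokine gene Ccl2 in each rat, by feeding state (x axis) in control (blue) and cafeteria rats (orange), with the mean ± SD of 4 or 5 rats. In both diets the fasted group has the lowest mean of Tlr6 and Ticam1 and the highest mean of Ccl2.

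Co-receptor, transport and chaperone genes were counted beside all genes. In the mean of both diets 4.09% of all genes were called on fasting and 13.5% on refeeding, where 5.95% rose. Of 9 measured co-receptors and ligand transfer proteins, 0 changed on fasting and 1 rose on refeeding in the mean of both diets: Cd180, a relative of Tlr4 on B cells, by 0.21 ± 0.06 (adjusted p = 0.0156, limma). Cd14 differed by 0.55 on fasting and -0.49 on refeeding in the mean of both diets, but did not pass the test (adjusted p = 0.277 and 0.227, limma). It varied widely between rats, from -1.55 to 0.82 in cafeteria fed and from 0.02 to 1.29 in cafeteria fasted rats. In control rats the fed values (-0.14 to 0.40) lay inside the fasted range (-0.71 to 0.82). Ly96 differed by 0.02 on fasting and 0.05 on refeeding. Of 10 chaperones and trafficking genes, 0 changed on fasting and 2 rose on refeeding, Slc15a4, a lysosomal transporter needed for endosomal receptor signalling (0.30 ± 0.07, adjusted p = 0.0054; 0.16 by a second probe), and Ctss, a lysosomal protease (0.19 ± 0.06, adjusted p = 0.0286). A second Ctss probe had a refeeding change of 0.00, and the call of Ctss was lost without any 1 of 8 arrays (adjusted p up to 0.0640). The chaperone Unc93b1, which carries endosomal receptors, changed by -0.08 and 0.10.

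Downstream of the receptors, 23 kinases and ubiquitin ligases were measured, of which 1 rose on fasting (Map3k8, 0.55 ± 0.14, adjusted p = 0.0262, limma; lost without control fed rat 1, cafeteria fed rat 1 or 7 or cafeteria fasted rat 11, adjusted p up to 0.0743). Over all genes 1.82% rose and 2.27% fell on fasting, and 5.95% rose and 7.51% fell on refeeding. On refeeding 2 of the 23 rose and 4 fell in the mean of both diets. Traf6, the ubiquitin ligase of the Myd88 branch, fell by 0.52 ± 0.13 (adjusted p = 0.0079), Map2k3 by 0.46 ± 0.11, Map3k8 by 0.50 ± 0.14 and Peli2 by 0.35 ± 0.08. Map2k3 and Peli2 were called in control rats (-0.73 and -0.59, adjusted p = 0.0040 and 0.0018) and not in cafeteria rats (-0.19 and -0.11), and no gene passed the interaction test between diet and refeeding (0%, with 1807 genes at an unadjusted p under 0.05, limma). The kinase Tbk1 of the Ticam1 branch rose by 0.18 ± 0.04 (adjusted p = 0.0043) and Chuk, an I-kappa-B kinase, by 0.23 ± 0.07. Among 12 transcription factors, Nfkb1 fell by 0.17 ± 0.05 on fasting (adjusted p = 0.0280, lost without any 1 of 5 arrays) and rose by 0.20 ± 0.04 on refeeding (adjusted p = 0.0027), with a second probe at 0.22, and Irf3, which acts below Ticam1, rose by 0.21 ± 0.05 (adjusted p = 0.0054). Jun and Fos were called too, at -0.81 ± 0.25 and -0.60 ± 0.20. Those calls were lost without any 1 of 6 arrays for Jun and of 16 arrays for Fos (adjusted p up to 0.0621 and 0.0948).

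The called chemokine genes among the induced targets were higher in fasted rats. Of 18 measured targets, 4 rose and 1 fell on fasting, and 1 rose and 5 fell on refeeding, in the mean of both diets. Over all genes 1.82% rose and 2.27% fell on fasting, and 5.95% rose and 7.51% fell on refeeding. Ccl2, a monocyte-attracting chemokine, had levels of -0.25, 0.09, 0.07 and -0.13 for control fed rats and of 0.23 to 1.37, with a median of 0.99, for the 5 control fasted rats. In cafeteria rats it stood at -1.59, -0.08, -1.26, -0.50 and -0.78 when fed and at 1.21, 0.61, 0.40, 0.05 and 1.34 when fasted. In the mean of both diets Ccl2 rose by 1.26 ± 0.20 on fasting (adjusted p = 0.0007, limma). It fell by 1.28 ± 0.19 on refeeding (adjusted p = 0.0002, limma). Cxcl10, an interferon-induced chemokine, rose by 0.92 ± 0.22 and fell by 1.12 ± 0.21 (adjusted p = 0.0144 and 0.0009). Cxcl1 and Cxcl2, which attract neutrophils, fell by 0.78 ± 0.21 and 1.85 ± 0.50 on refeeding (adjusted p = 0.0116 and 0.0124). By diet these changes were -1.24 and -2.94 in cafeteria rats, both called (adjusted p = 0.0308 and 0.0330), and -0.32 and -0.77 in control rats, neither called. No gene passed the interaction test between diet and refeeding (0% of genes, limma), so a difference between the diets was not shown. The cafeteria calls were lost without any 1 of 5 arrays for Cxcl1 and of 6 for Cxcl2 (adjusted p up to 0.0869 and 0.101). Their fasting calls, of 0.75 ± 0.21 and 1.83 ± 0.51, were lost without any 1 of 16 arrays for Cxcl1 and of 13 for Cxcl2 (adjusted p up to 0.0870 and 0.0836). Il6 was called against the chemokines, at -0.12 on fasting and 0.11 on refeeding, and lost those calls without any 1 of 19 and of 6 arrays, and Il10 fell by 0.13 on refeeding, a call lost without any 1 of 10 arrays. Nfkbia, the NF-kB inhibitor and itself an NF-kB target, rose by 0.57 ± 0.12 on fasting (adjusted p = 0.0057), 1 of 3 negative regulators among 17 measured that rose. A second Nfkbia probe had a smaller fasting change, of 0.37. On refeeding 0 of the 17 rose and 3 fell, among them Zc3h12a by 0.29 ± 0.08 (adjusted p = 0.0131).

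**Figure D5:**
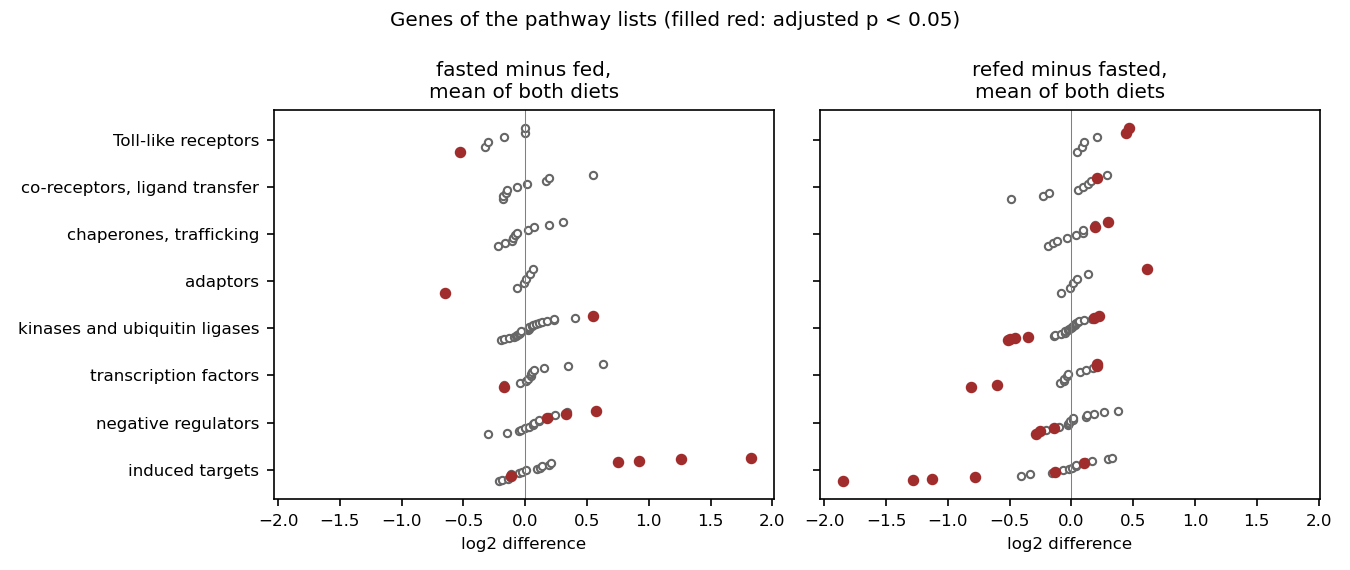
Change on fasting (left) and refeeding (right) in the mean of both diets (x axis, log2 difference) for each measured gene of the receptor family and of 7 pathway lists (y axis). Filled red points passed an adjusted p of 0.05 over all genes. Tlr6 is the filled receptor on the left at -0.53, Ticam1 the filled adaptor at -0.65, and the filled induced targets reach 1.83 on the left and -1.85 on the right.

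Read as a group, the 6 tested receptors had a median change of -0.24 on fasting in the mean of both diets, with 0 of 6 above 0, against a median of 0.01 over all 24166 genes. That count includes Tlr7 and Tlr9, both at -0.00, whose changes had opposite signs in the diets (-0.16 and 0.15 for Tlr7, -0.04 and 0.04 for Tlr9). On refeeding the median was 0.15, with 6 of 6 above 0, against 0.00. Both comparisons use the same fasted rats, so the opposite signs are not independent. For diet in the mean of 3 feeding states the median was 0.09, with 3 of 6 above 0, and in the pathway lists, beside 3.24% of all genes called, 2 of 23 kinases and ligases were lower in cafeteria rats (Ripk1 at -0.25 ± 0.06 and Traf3 at -0.19 ± 0.04) and 2 of 12 transcription factors were higher (Nfkb2 by 0.27 ± 0.06 and Nfkb1 by 0.14 ± 0.04; adjusted p from 0.0043 to 0.0311, limma). The Nfkb1 diet call was lost without any 1 of 8 arrays (adjusted p up to 0.0734).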

How the data were processed

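Blood mononuclear cell RNA from 29 rats was hybridised to as many 2-colour Agilent arrays of the rat genome, 1 rat per array, with the sample in Cy5, a pooled reference in Cy3 and no dye swap, per the labels. Per the file headers, the authors' deposited scanner files, written by Feature Extraction 9.5.1.1 and giving positions on rn4, hold the mean spot intensity and the local background intensity in both colours, processed intensities, and flags for spots well above background, saturated spots and outliers. The series' value table, deposited by the authors, gives log2 Cy5 signal for every array (slope 0.985 to 1.02 against log2 of the scanner's Cy5 intensity; column medians 9.37 to 9.76). Its scale and direction follow from that match, and how it was normalized and whether it was centred are not given in the sources used here.

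From the scanner files, background was corrected with limma's normexp (offset 50), and log2(Cy5/Cy3) was loess-normalized array by array, in R 4.3.3 with limma 3.58.1. Control spots and outlier spots had weight 0, and outlier spots (3756 probe and array values) were then left out. Probes well above background in Cy5 on at least 4 of 29 arrays were kept (28193 of 41012), and the brightest probe stood for each gene, which gave 24166 genes. Names came from the files' accessions, symbols and synonyms through a RefSeq gene table of the GRCr8 assembly (21103 probes had a symbol, and 168 names were set aside where probe and gene lie on different chromosomes). Promoter sequences are RefSeq's on GRCr8. Motifs, like the members and gene lists, were chosen with earlier results of these data known.

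All arrays entered 1 limma fit (lmFit, eBayes) of 6 group means without covariates. P-values are 2-sided and adjusted by Benjamini-Hochberg over all genes within each of 14 comparisons, and calls are adjusted p-values under 0.05. The fit was tested on simulated data with known changes. Correlations used values with the group mean taken off and a 2-sided permutation test with 100000 resamples, which treats such values as exchangeable. The rule for naming genes took every member, at most 6 called genes of each pathway list per comparison, and the 3 genes most correlated with each tested receptor. Cd14, Ly96, Unc93b1, Myd88, Tirap and Ticam2 fall outside it and were named for their place in the pathway, with their values known. Not every gene the rule took is reported here. Alternatives changed the background correction, normalization, probe filter, slide, extraction run, marker covariates and rat-number block, and left out each array. Figures were drawn with matplotlib 3.10.9 in Python 3.11.15.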

Additional observations from a re-analysis of the deposited data

Results flagged for a closer look

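Of 42 sets of values (the 6 tested receptors and the Tlr1 probe in 6 groups), 1 held a rat far from the others by Dixon's test at the 95% level, and chance alone flags about 1 in 20 such sets. Tlr7 stood at 0.66 in control refed rat 12, while the other 4 rats of that group lay between -0.06 and 0.15. The same rat was the highest of its group in Tlr2 (0.15), Tlr4 (0.72) and Tlr6 (0.20). It also had the highest marker means of its group, 0.37 above the group mean for monocyte and 0.36 above it for neutrophil markers, whose part was not tested. Without this rat the refeeding change of Tlr4 in control rats was 0.34 and no longer called (adjusted p = 0.154, limma).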

How the results depend on the processing

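Of the 6 tested receptors, the number called under the alternatives moved as follows. For fasting in control rats it was 1 and became 0 with the scanner software's processed signals, with median centring, in the fit to the authors' deposited table and with slide as a fixed block. For fasting in cafeteria rats it was 1 and became 0 with median centring, with slide as a fixed block and with extraction run as a covariate. For fasting in the mean of both diets it was 1 and became 2 with processed signals, in the authors' deposited table (both adding Tlr4) and with the monocyte marker mean as a covariate (adding Tlr2), and 0 with median centring. For refeeding in control rats it was 2 and became 0 with median centring and with the mean of the platelet markers as a covariate, and 1 without the filter on dim probes, with slide as a fixed block and with extraction run as a covariate. For refeeding in cafeteria rats it was 1 and became 0 with median centring, with Cy5 alone and in the authors' deposited table, and for refeeding in the mean of both diets it was 2 and became 1 with median centring. For diet in refed rats it was 0 and became 1 in the authors' deposited table (Tlr3). For diet in the mean of 3 feeding states it was 1 and became 0 with median centring, slide as a fixed block and the replicate block. Leaving out 1 array each time gave 0 to 1 for fasting in control rats, 0 to 1 for fasting in cafeteria rats, 1 to 2 for fasting in the mean of both diets, 1 to 2 for refeeding in control rats and 0 to 1 for refeeding in cafeteria rats. The causes were not tested.

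None of the 9 called receptor changes reversed under the alternatives run, and 28 of the 75 uncalled ones changed sign under at least 1. Of 56 pathway calls, 26 were lost without some 1 array and 46 with median centring. The count of all genes called ranged from 6 to 1177 around 989 for fasting and from 810 to 3737 around 3255 for refeeding in the mean of both diets. In the authors' deposited table the median of all genes shifted by 0.153 for refeeding in control rats, where 2945 genes rose and 968 fell, against 799 and 1450. With the rat number as a block (the replicate block), possible only for comparisons between diets, the diet difference of Tlr6 was 0.25 with an adjusted p of 0.0875 (limma). Rats with 1 number did not deviate together (14 pairs, correlation -0.153 to 0.209, 2 over 0.1), so the numbers were not taken as pairs. Dim probes such as Tlr9 limit which changes could be seen.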
